A study of Mus musculus with 13 samples.

Results

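The genes described here encode the cell adhesion receptors of the integrin, cadherin and claudin families. They were chosen by name: spots annotated with exactly 1 gene symbol that begins with Itga, Itgb, Cdh, Pcdh or Cldn, leaving out Cdh2, Cldn4, Cldn6 and the proteins that bind integrin beta subunits. This gave 41 genes on 49 spots, out of 9669 genes with a symbol and 20205 spots. They comprised 14 integrin alpha genes, 7 integrin beta genes, 8 cadherins (cadherin-related Cdhr genes included), 6 protocadherins and 6 claudins (the claudin-like Cldnd1 included). Of these, 35 genes had a value in each independent pair of RNA sources and entered the tests, among 7968 genes in all. Itga11, Itgb7, Cdh16, Cdhr1, Cldn7 and Cldn19 did not.

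Mouse total RNA from a source named NT1 was hybridised against RNA from a source named TBV on 13 two-colour arrays, with NT1 in Cy5 on 7 arrays and TBV in Cy5 on 6. NT1p14 was set against TBVp13 on 5 arrays, NT1p12 against TBVp12 on 4, NT1 1 against TBV2 on 2 and NT1p12 against TBVp13 on 2. These source pairs are written NT1p14/TBVp13 and so on. The figure that follows p was taken for the passage number, and the series title places a homozygous Sall4 mutation beside NT1. The labels name no cell type, treatment, strain or clone, so each name was taken as 1 line. NT1p12/TBVp13 shares its sources with other pairs, so 3 pairs were independent of each other and the fourth is given beside them.

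Integrins are heterodimers of an alpha and a beta subunit that anchor the cytoskeleton to the extracellular matrix, and the beta 1 subunit has the largest set of alpha partners. Cadherins join cells to each other in the presence of calcium and are tied to actin through catenins, while protocadherins are a related group best known from the nervous system. Claudins form the paracellular barrier of tight junctions. In embryonic stem cells and the early embryo, adhesion through beta 1 integrins and E-cadherin holds cells to the matrix and to each other.

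Values are log2 ratios of NT1 over TBV, centred on each array's median. The deposited ratio was taken to have Cy5 on top, a reading that no label states, so the sign of every value could be the reverse. In the same dye orientation, arrays of NT1p14/TBVp13 correlated between -0.36 and 0.24 over all spots with those of NT1p12/TBVp12, 3 of these 10 combinations lying under -0.3. The arrays of NT1p14/TBVp13 correlated between 0.03 and 0.30 with those of NT1 1/TBV2, and between 0.05 and 0.22 with those of NT1p12/TBVp13. Arrays of NT1p12/TBVp12 correlated between -0.03 and 0.27 with those of NT1 1/TBV2, and between -0.02 and 0.29 with those of NT1p12/TBVp13. The direction of NT1p14/TBVp13 relative to NT1p12/TBVp12 is therefore not settled either. Calls of the adhesion genes and of the fibroblast list that rest on it are also given with its signs turned. Calls of the other marker lists and of the partner lists rest on it too and are given only with the signs not turned. From 14314 to 18381 spots had a value on each array. Many values had lost their decimals: whole numbers made up 19.3% of all values and 95 of the 511 values of the tested adhesion genes, and none of the 42 of these with a size of 1 or more had decimals. Sall4 itself was at 0.07 in NT1p14/TBVp13, -0.59 in NT1p12/TBVp12 and -0.32 in NT1 1/TBV2. The position of its spot relative to the mutation is not given, and its ratio is no check of the labels.

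Between NT1 and TBV, limma called no adhesion gene. Across the 3 independent pairs, 0 of 35 genes passed the threshold of an adjusted p of 0.05 in limma, against a background of 0% of all 7968 genes. At an unadjusted p under 0.05 limma gave 0 adhesion genes and 91 of all genes, and the lowest unadjusted p among the adhesion genes was 0.151, for Cdh11 (limma, adjusted p = 1.00). The 3-pair means of the 35 genes ran from -0.19 for Cldn13 to 0.37 for Cldnd1, and with the signs of NT1p14/TBVp13 turned from -0.63 for Itgb1 to 0.39 for Itga2b. Their median was -0.02, beside 0.00 for all genes tested. With these ratios from bulk RNA, fewer cells of a type and less RNA per cell cannot be told apart.

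**Figure D1:**
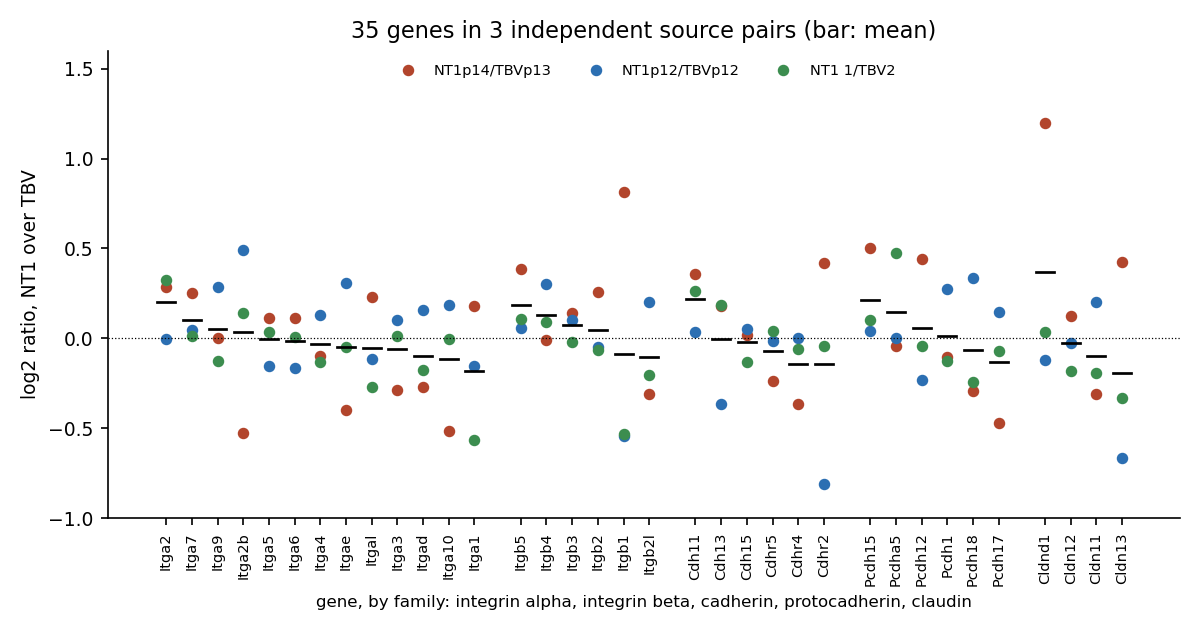
Log2 ratio of NT1 over TBV (vertical axis) of the 35 tested adhesion genes, grouped by family along the horizontal axis; coloured points are the 3 independent source pairs and the black bar is their mean. The points of NT1p14/TBVp13 lie on the other side of 0 from those of NT1p12/TBVp12 for 27 of the 35 genes, and Itgb1 at 0.81 and Cldnd1 at 1.20 are the highest of the NT1p14 points.

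Among the integrin alpha genes the family median was -0.03, with pair medians of 0.00 in NT1p14/TBVp13, 0.10 in NT1p12/TBVp12 and 0.00 in NT1 1/TBV2. Itga2, a collagen receptor subunit, had the highest mean of the family at 0.20 ± 0.18 (SD, n = 3), and Itga1, another collagen receptor subunit, the lowest at -0.18 ± 0.37. The subunits of laminin receptors stood close to 0. Itga3 averaged -0.06 ± 0.20, Itga6 averaged -0.02 ± 0.14 and Itga7 averaged 0.10 ± 0.13 (SD, n = 3 each). Itga5, the fibronectin receptor subunit, averaged 0.00 ± 0.14 (SD, n = 3), with 0.11, -0.16 and 0.04 in the 3 pairs. The remaining alpha genes, Itga2b, Itga4, Itga9, Itga10, Itgad, Itgae and Itgal, had means between -0.11 and 0.05, inside the range set by Itga1 and Itga2.

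Among the integrin beta genes the family median was 0.06, with pair medians of 0.20, 0.08 and -0.04 in NT1p14/TBVp13, NT1p12/TBVp12 and NT1 1/TBV2. Itgb5, which pairs with alpha v in a vitronectin receptor, averaged 0.18 ± 0.18 (SD, n = 3). Itgb4, the partner of alpha 6 in hemidesmosomes, averaged 0.13 ± 0.16 (SD, n = 3). Itgb1 averaged -0.09 with the largest SD of the 35 genes, 0.78 (n = 3), and with NT1p14/TBVp13 turned it averaged -0.63 ± 0.16 (limma, adjusted p = 0.63). Itgb2, of leukocyte integrins, Itgb3, of platelet and vitronectin receptors, and Itgb2l had means of 0.05, 0.07 and -0.10.

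The cadherin median was -0.04 and the protocadherin median 0.04. Cdh11, a cadherin of mesenchymal cells, averaged 0.22 ± 0.17 (SD, n = 3). The muscle cadherin Cdh15 averaged -0.02, the lipid-anchored Cdh13 averaged 0.00, and both lay closer to 0 than Cdh11. Cdhr2 and Cdhr5, which bind each other in the intestinal brush border, averaged -0.14 ± 0.62 and -0.07 ± 0.15 (SD, n = 3 each), and Cdhr4 averaged -0.14 ± 0.20. Pcdh15, a component of the tip link of inner ear hair cells, was the highest protocadherin at 0.21 ± 0.25 (SD, n = 3), and Pcdh17 was the lowest at -0.13 ± 0.31. Pcdh1, Pcdh12, Pcdh18 and Pcdha5 averaged 0.01, 0.06, -0.07 and 0.14. The 4 claudin genes had a median of -0.06, with Cldnd1 at 0.37 ± 0.72, Cldn12 at -0.03 ± 0.15, Cldn11 at -0.10 ± 0.27 and Cldn13 at -0.19 ± 0.56 (SD, n = 3 each).

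The mean of Cldnd1 rested on few arrays. On the arrays of NT1p14/TBVp13 it was at 0.20, 2, 0.00, 2 and 2, against -0.14, 0.04 and -0.24 on the 3 arrays of NT1p12/TBVp12 that had a value, and -0.12 and 0.19 in NT1 1/TBV2. Its high mean came from 3 arrays of a single pair, each at the whole number 2. Its difference between NT1p14/TBVp13 and NT1p12/TBVp12, 1.33 (SE 0.51), was the second highest of the 35 genes and did not pass the threshold (limma, adjusted p = 0.079). With NT1p14/TBVp13 turned it was -1.13, the lowest of the 35 (limma, adjusted p = 0.52).

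Genes on the same side of 0 in each of the 3 independent pairs were few. Cdh11, Itga7, Itgb5 and Pcdh15 were above 0 in all 3, which is 11.4% of the 35 genes against a background of 8.95%, and 0 genes were below 0 in all 3 against a background of 5.45%. Cdh11 was at 0.36, 0.03 and 0.26 in NT1p14/TBVp13, NT1p12/TBVp12 and NT1 1/TBV2. Itgb5 was at 0.39, 0.06 and 0.11, Itga7 at 0.25, 0.04 and 0.01, and Pcdh15 at 0.50, 0.04 and 0.10 in the same pairs. In NT1p12/TBVp12 these values thus lay between 0.03 and 0.06. All 4 means also depended on the dye orientation: with NT1 in Cy5 only, Cdh11, Itgb5, Pcdh15 and Itga7 averaged -0.04, -0.06, -0.01 and -0.11, and with TBV in Cy5 only they averaged 0.48, 0.42, 0.43 and 0.32. With the signs of NT1p14/TBVp13 turned, Itga2b, Itga3, Itgb4 and Pcdha5 were above 0 in all 3 pairs (11.4%, against 14.1% of all genes). Cdhr2, Cldn12, Cldn13, Itga1, Itgal, Itgb1, Itgb2 and Pcdh12 were then below 0 in all 3 (22.9%, against 16.2% of all genes).

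A dye effect, the part of a ratio that keeps its sign when the dyes are swapped, was tested on the same pairs. No adhesion gene passed in limma (0 of 35, background 0%), although 7 had an unadjusted p under 0.05. The count of all genes at that unadjusted p is not given here, so the 7 cannot be read as particular to the adhesion genes. On all 13 arrays the dye term passed for Cdhr4 only (0.36, limma, adjusted p = 0.039), beside 2.01% of all genes.

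The comparison of the source pairs with each other asked how far NT1 over TBV depended on which preparations were hybridised. Itgb1 had the highest difference between NT1p14/TBVp13 and NT1p12/TBVp12 among the 35 genes. On the 5 arrays of NT1p14/TBVp13 the mean of its spots was 0.39, 0.97, 1.17, 0.92 and 0.56, against -0.76, -0.60, -0.01 and -0.80 on the 4 arrays of NT1p12/TBVp12. The arrays of the pairs did not overlap. In NT1 1/TBV2 it was at -0.41 and -0.65, and in NT1p12/TBVp13 at 0.06 and 0.29. The difference was 1.36 (SE 0.21) and passed the threshold (limma, adjusted p = 0.011), and 5.07% of all genes had a higher one.

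**Figure D2:**
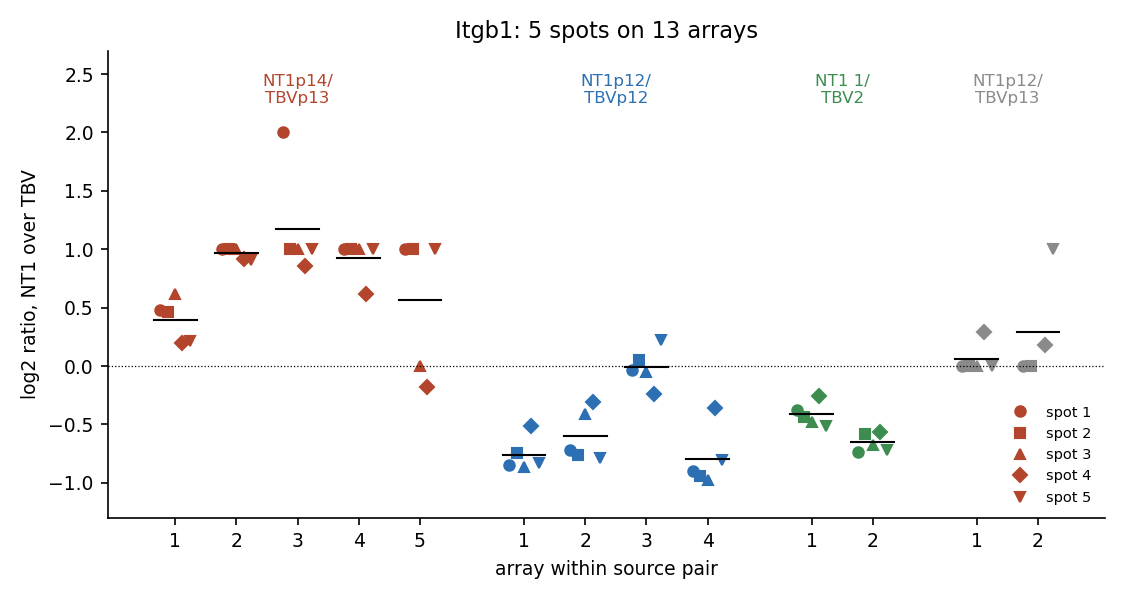
Log2 ratio of NT1 over TBV (vertical axis) of each of the 5 Itgb1 spots on each array (horizontal axis, arrays grouped by source pair); symbols mark the spots and black bars the mean of the spots on an array. Points of NT1p14/TBVp13 lie above 0 except for 2, those of NT1p12/TBVp12 lie below 0 except for 2, and many of the first sit exactly at 1.

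Itgb1 is the adhesion gene with the most spots, and its 5 spots moved alike. In NT1p14/TBVp13, 23 of 25 spot values were above 0, 1 was below and 1 at 0. In NT1p12/TBVp12, 18 of 20 were below 0, and in NT1 1/TBV2, 10 of 10. The pair value of single spots ran from 0.46 to 1.16 in NT1p14/TBVp13, from -0.63 to -0.36 in NT1p12/TBVp12, and from -0.61 to -0.41 in NT1 1/TBV2. The spots share the RNA and the arrays, so they repeat the measurement and not the preparation. In NT1p14/TBVp13, 15 of the 25 values were whole numbers, against 0 of 20 in NT1p12/TBVp12, so the size of the ratio is coarse in the first of these pairs. With the signs of NT1p14/TBVp13 turned, the difference of Itgb1 was -0.28 (limma, adjusted p = 0.70).

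Of the 35 genes, 7 differed between NT1p14/TBVp13 and NT1p12/TBVp12 at an adjusted p under 0.05 in limma, which is 20% against a background of 24% of all genes. The difference was above 0 for Itgb1, Cdhr2 and Cldn13 (8.57%, background 13.1%) and below 0 for Itga2b, Itgae, Pcdh17 and Pcdh18 (11.4%, background 11%). The share of adhesion genes was thus close to that of all genes, and these calls describe single genes and not the families. Arrays of a pair are repeats of the same RNA, so these p-values speak of these RNA sources and not of passages.

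**Figure D3:**
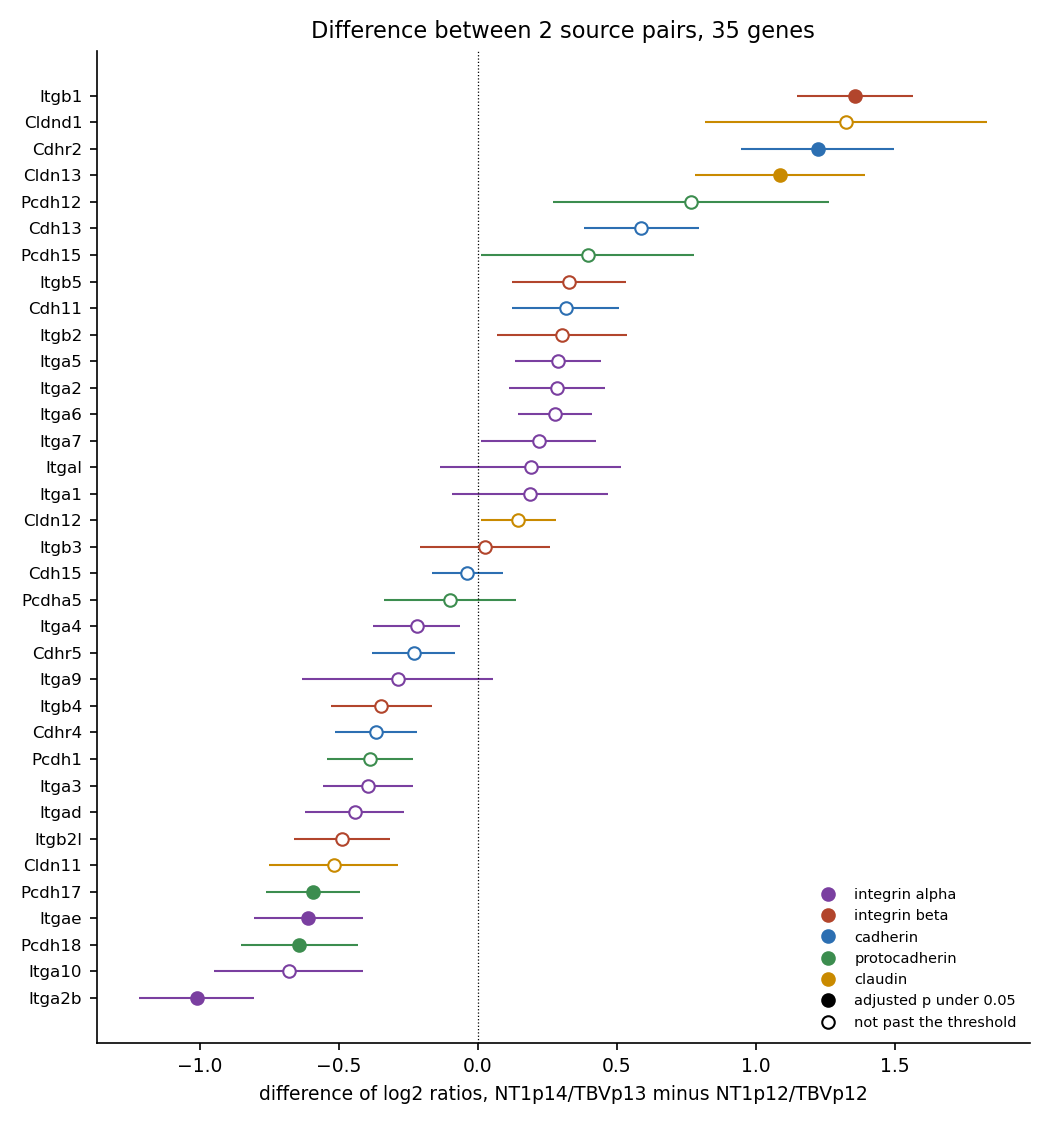
Difference in log2 ratio of NT1 over TBV between NT1p14/TBVp13 and NT1p12/TBVp12 (horizontal axis; bars are standard errors of the limma fit) for the 35 genes (vertical axis, ordered by difference, coloured by family); filled points passed an adjusted p of 0.05. Itgb1 at 1.36 and Itga2b at -1.01 mark the ends, and filled points are found in each family.

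Cdhr2, a brush border cadherin, was at 0.00, 0.00, 0.00, 1 and 1 on the arrays of NT1p14/TBVp13, against -0.89, -1, -0.34 and -1 in NT1p12/TBVp12. The pairs did not overlap, but 8 of its 12 values were whole numbers. The difference was 1.22 (SE 0.28; limma, adjusted p = 0.020). Cldn13 was at -0.35, 0.04, 1 and 1 on the 4 arrays of NT1p14/TBVp13 that had a value, against -0.91, -0.72, -0.19 and -0.84 in NT1p12/TBVp12. Of the arrays of NT1p14/TBVp13, 1 fell within the range of NT1p12/TBVp12, and the difference was 1.09 (SE 0.31; limma, adjusted p = 0.033). In NT1 1/TBV2 the values were 0.03 and -0.12 for Cdhr2 and -0.36 and -0.30 for Cldn13, so that the claudin lay below 0 there too.

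Itga2b, the alpha IIb subunit of the platelet fibrinogen receptor, was at -0.10, -0.08, -0.36, -0.95 and -1 on the arrays of NT1p14/TBVp13, against 0.41, 0.77, 0.45 and 0.33 in NT1p12/TBVp12. The pairs did not overlap, and the difference was -1.01 (SE 0.21; limma, adjusted p = 0.015). Of all genes, 1.07% had a lower one, and with NT1p14/TBVp13 turned the difference of Itga2b was 0.03 (limma, adjusted p = 0.97). Its partner in platelets, Itgb3, differed by 0.03 (SE 0.23; limma, adjusted p = 0.94). Itgae, the alpha E subunit that binds E-cadherin, was at 0.28, -0.27, -0.40 and -0.66 on the 4 arrays of NT1p14/TBVp13 that had a value, against 0.36, 0.36, 0.07 and 0.43 in NT1p12/TBVp12. These ranges overlapped, and the difference was -0.61 (SE 0.20; limma, adjusted p = 0.048).

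The protocadherins Pcdh17 and Pcdh18, known from the developing nervous system, lay in the same direction. Pcdh17 was at 0.07, -0.19, -0.56, -0.51 and -0.90 on the arrays of NT1p14/TBVp13, against 0.26, 0.34, -0.04 and 0.04 in NT1p12/TBVp12, with an overlap of the pairs. Its difference was -0.59 (SE 0.17; limma, adjusted p = 0.032). Pcdh18 was at -0.16, -0.05, -0.37, -1 and 0.00 on the arrays of NT1p14/TBVp13, against 0.30, 0.43, 0.02 and 0.59 in NT1p12/TBVp12, without overlap. Its difference was -0.64 (SE 0.21; limma, adjusted p = 0.049). The other protocadherins, Pcdh1, Pcdh12, Pcdh15 and Pcdha5, did not pass, with differences from -0.39 to 0.77.

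These calls changed when the arrays with many whole numbers or single arrays were left out. Arrays 4 and 5 of NT1p14/TBVp13 and both arrays of NT1p12/TBVp13 held over 25% whole numbers. Without these 4 arrays, a choice made after seeing the data, 0 of the 35 genes and 17 of all genes (0.213%) passed in limma. At an unadjusted p under 0.05 limma gave 9 of the 35 and 2308 of all genes, and Itgb1 stood at 1.42 (adjusted p = 0.053). Whether the coarse values or the smaller number of arrays lowered the number of calls was not tested. The count of calls was 11 without array 1 of NT1p14/TBVp13, beside 30.3% of all genes. It was 1 without array 2 or array 4 of NT1p12/TBVp12, when Itgb1 alone passed, beside 1.73% and 1.48% of all genes. Itgb1 passed in each of the 9 fits that left out 1 array, with differences from 1.25 to 1.52. With the signs of NT1p14/TBVp13 turned, also chosen after seeing the data for this contrast, 0 adhesion genes passed in limma, beside 0.276% of all genes. In that fit 2 adhesion genes and 750 of all genes had an unadjusted p under 0.05.

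The other contrasts gave no call among the adhesion genes. Between NT1p14/TBVp13 and NT1 1/TBV2, 0 of 35 passed against a background of 0.0502%, and between NT1p12/TBVp12 and NT1 1/TBV2, 0 of 35 against a background of 0%. At an unadjusted p under 0.05 limma gave 2 and 0 adhesion genes in these contrasts, beside 866 and 561 of all genes. Itgb1 differed by 1.35 in the first of these contrasts (SE 0.26; limma, adjusted p = 0.16) and by -0.01 in the second. NT1p12/TBVp13 links the sources: through it, NT1p14 over NT1p12 came to 0.63 for Itgb1 and TBVp13 over TBVp12 to -0.72, values with no test of their own. With NT1p14/TBVp13 turned, the first of these was -0.998. Of the 9 spot values of Itgb1 in the linking pair NT1p12/TBVp13, 7 were whole numbers and 6 were at 0.

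Promoters are shown for 4 genes whose pair values differed, Itgb1 and Cdhr2 with a difference above 0 and Itga2b and Pcdh18 with one below 0, to set the letters beside the direction. Sequences are the 250 bases before the gene start, 5′ to 3′ on the gene's strand, from RefSeq (GRCm38.p6): Itgb1 at chr8:128685404-128685653 (+), Cdhr2 at chr13:54701213-54701462 (+), Itga2b at chr11:102469884-102470133 (-) and Pcdh18 at chr3:49757317-49757566 (-). Capitals mark motifs searched on both strands. The GC box was spelled GGGCGG and the CCAAT box by its name. The E-box read by Snail and Zeb factors was spelled CAGGTG, and the TATA box was spelled TATAAA.
Itgb1: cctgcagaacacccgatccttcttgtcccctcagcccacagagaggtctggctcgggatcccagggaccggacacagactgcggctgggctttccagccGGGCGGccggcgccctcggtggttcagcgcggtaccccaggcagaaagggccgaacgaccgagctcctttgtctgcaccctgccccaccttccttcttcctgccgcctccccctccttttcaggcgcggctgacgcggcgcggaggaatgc
Cdhr2: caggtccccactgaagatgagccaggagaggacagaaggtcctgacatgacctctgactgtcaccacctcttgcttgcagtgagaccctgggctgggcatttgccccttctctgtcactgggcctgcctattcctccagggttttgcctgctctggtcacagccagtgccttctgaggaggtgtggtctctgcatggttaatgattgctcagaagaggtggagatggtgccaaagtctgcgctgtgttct
Itga2b: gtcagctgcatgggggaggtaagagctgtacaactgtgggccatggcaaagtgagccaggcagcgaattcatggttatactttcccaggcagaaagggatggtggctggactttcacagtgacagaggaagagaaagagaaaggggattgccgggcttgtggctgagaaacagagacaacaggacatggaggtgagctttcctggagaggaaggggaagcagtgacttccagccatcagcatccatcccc
Pcdh18: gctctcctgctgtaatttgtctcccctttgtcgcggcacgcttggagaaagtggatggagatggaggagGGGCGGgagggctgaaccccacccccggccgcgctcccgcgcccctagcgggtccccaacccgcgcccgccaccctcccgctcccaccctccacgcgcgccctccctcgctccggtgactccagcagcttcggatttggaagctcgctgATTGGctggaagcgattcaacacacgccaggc
The window of Itgb1 held 21 CpG dinucleotides and 1 GC box at a GC content of 68.0%, and that of Pcdh18 held 23 CpG, 1 GC box and 1 CCAAT box at 68.0%. Cdhr2 and Itga2b had 1 and 2 CpG and none of the motifs. The window of Pcdh17, with a difference below 0 and not shown, held 21 CpG, 1 GC box and 2 CCAAT boxes at 64.8%. Whether the letters bear on the direction was not tested. Over all 32851 promoters of this length, 32.7% held a GC box, 33.8% a CCAAT box, 17.2% the E-box and 12.4% a TATA box, and the median was 6 CpG. The table held a promoter for 26 of the 41 adhesion genes. A match is a description of letters and not a binding site.

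Of the 9 tested alpha subunits that pair with beta 1, 0 passed in the contrast of NT1p14/TBVp13 with NT1p12/TBVp12, where 24% of all genes passed. For Itga1, Itga2, Itga3, Itga4, Itga5, Itga6, Itga7, Itga9 and Itga10, the pair values ran from -0.52 to 0.28 in NT1p14/TBVp13, where 5 were above 0 and 3 below, and from -0.17 to 0.29 in NT1p12/TBVp12. Their differences between these pairs ran from -0.68 for Itga10 to 0.29 for Itga5. Itga9 was at 0 on each array of NT1p14/TBVp13 with a value, and 7 of its 10 values were whole numbers. The lowest adjusted p of these 9 genes was 0.082 (limma). Whether their differences depart from that of Itgb1 was not tested. These are ratios, and the table holds no levels from which the amount of each subunit could be read.

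**Figure D4:**
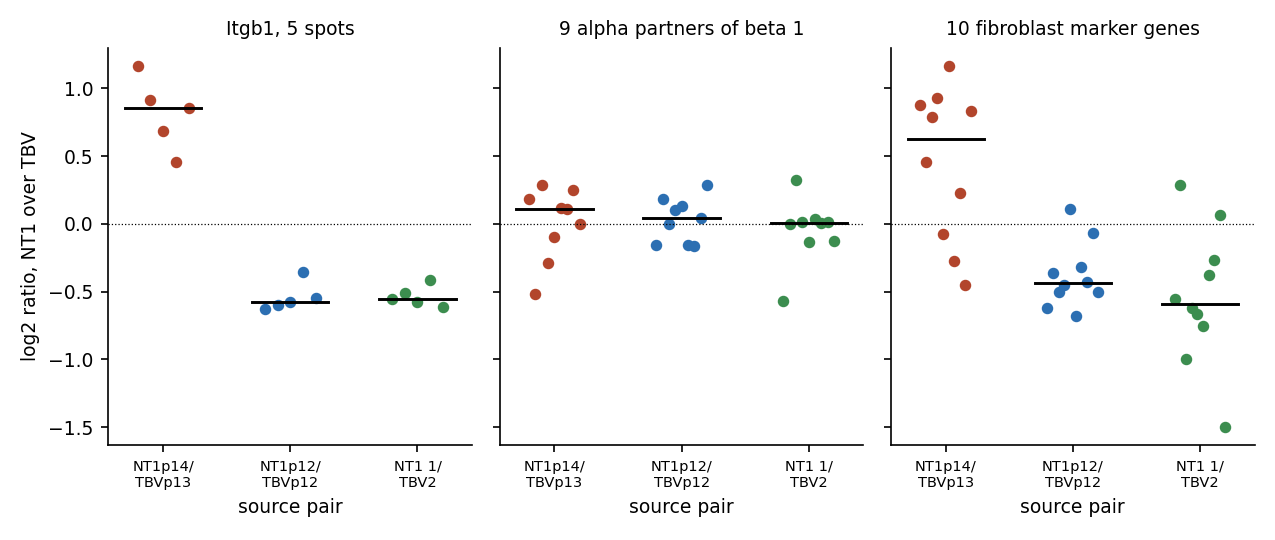
Log2 ratio of NT1 over TBV (vertical axis, shared) in the 3 independent source pairs (horizontal axis) for the 5 Itgb1 spots, the 9 alpha partner genes and 10 fibroblast marker genes; points are spots or genes and black bars their medians. Itgb1 and most of the fibroblast genes lie high in NT1p14/TBVp13 and low in the other pairs, and the alpha partners are spread around 0 in each.

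Most fibroblast marker genes differed in the same direction as Itgb1. Of the 17 listed, 10 were tested, and their median was 0.62 in NT1p14/TBVp13, -0.44 in NT1p12/TBVp12 and -0.59 in NT1 1/TBV2. Acta2, Col1a1, Col1a2, Col3a1, Fbln2, S100a4 and Vim passed in limma with a difference above 0 between the first 2 of these pairs, and 0 of the 10 passed below 0. The background for this and the other marker lists was 13.1% of all genes above 0 and 11% below 0. With NT1p14/TBVp13 turned, the medians of the fibroblast list were -0.62, -0.44 and -0.59 in the same order of pairs, and 0 of the 10 passed. At an unadjusted p under 0.05 limma then gave 1 of the 10, beside 750 of all genes. Col1a1, a collagen bound by beta 1 integrins, was at 0.88, -0.62 and -0.56 in the 3 pairs, close to Itgb1 at 0.81, -0.54 and -0.53. Other genes of the list did not follow Itgb1. Col1a2 was at 0.46, -0.36 and 0.29, above 0 in NT1 1/TBV2. Dcn and Col6a1 had differences below 0, at -0.34 and -0.20, and did not pass. The part of fibroblast RNA in the Itgb1 result was not tested, and a table of ratios does not show which of these markers are near a level of 0. Of 10 pluripotency genes, 4 passed with a difference above 0 between the same pairs (Dppa5a, Nr0b1, Pou5f1 and Zfp42), and the list's medians were -0.25, -0.56 and -0.09. A difference above 0 is not a ratio above 0: Pou5f1 was at -0.25, -1 and -0.51, and Zfp42 at -0.58, -1.75 and -0.01. In NT1p14/TBVp13 and NT1p12/TBVp12 the values of Pou5f1, Zfp42, Dppa5a, Vim, S100a4 and Sparc were fractions that averages of whole numbers give. In NT1p14/TBVp13 this also held for Acta2 and Col1a1, so the sizes of these ratios are coarse. With the signs not turned, 6 of the 10 pluripotency genes were below 0 in all 3 pairs, against a background of 5.45%. The other marker lists had 3 trophectoderm genes with 1 call (Ascl2), 7 endoderm genes with 2 (Col4a1 and Sparc, both above 0), 4 neural genes with 1 above 0 (Map2) and 1 below (Pax6), and 1 endothelial gene with 0. Apart from the fibroblast list, the calls of these lists with NT1p14/TBVp13 turned are not given.

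The partners of these receptors gave 0 calls between NT1 and TBV in each list (limma on the 3 pairs, background 0%). Between NT1p14/TBVp13 and NT1p12/TBVp12, Ctnna1, the alpha catenin that links cadherins to actin, differed by 1.11 and the nectin partner Afdn by -0.70 (limma, adjusted p = 0.021 and 0.031), among 9 catenins and cadherin partners. Among 12 integrin adaptors, Flna, a filamin that binds beta tails, differed by 0.72 and Zyx, of focal adhesions, by -0.54 (limma, adjusted p = 0.044 and 0.023). Of 15 integrin ligands, 4 passed above 0 (Col1a1, Col1a2, Col4a1 and the laminin Lama5) and 2 below 0 (the laminin Lama4 and Icam1). Of 7 epithelial-mesenchymal regulators, Vim and Ovol2 passed above 0 and Snai1, a repressor of E-cadherin, below 0 at -0.81 (limma, adjusted p = 0.014). Neither 8 tight junction partners nor 2 desmosome genes gave a call. These counts stand beside the 24% of all genes called in the same contrast. They rest on the direction of NT1p14/TBVp13 and are not given with its signs turned, where 0.276% of all genes passed.

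Signs on the arrays of a pair were counted for genes with a value on all its arrays. In NT1p14/TBVp13, Itgb1 was above 0 on all 5 arrays, the only one of 27 such genes (3.70%, background 8.05%), and Itga2b, Itga3 and Itgad were below 0 on all (11.1%, background 9.1%). In NT1p12/TBVp12, Itga2b, Itgae, Itgb2l and Pcdh18 were above 0 on all 4 arrays (13.3% of 30 genes, background 11%), and Cdh13, Cdhr2, Cldn13 and Itgb1 were below 0 on all (13.3%, background 11.7%). In NT1 1/TBV2, 6 of 35 genes were above 0 on both arrays (17.1%, background 25%) and 10 were below (28.6%, background 26.8%). Itgb1 and Itga2b were the genes with a fixed and opposite sign in NT1p14/TBVp13 and NT1p12/TBVp12. An opposite sign of the values of these pairs was found for 27 of 35 adhesion genes (77.1%), beside 70.8% of all genes, and with NT1p14/TBVp13 turned for 7 (20%), beside 27.3%.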

How the data were processed

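The authors deposited 1 log2 ratio per spot and array, with log base, numerator and normalisation not given in the sources used here. Values were taken as Cy5 relative to Cy3, then signed as NT1 over TBV by the labelled dyes, with each array centred on its median. Spots were named through the platform annotation. For each source pair, the means of both dye orientations, signed as NT1 over TBV, were averaged with equal weight, and spots of a gene with a value in all 3 independent pairs were averaged. All 7968 genes were fitted in limma 3.58.1 (R 4.3.3; lmFit, eBayes), two-sided against 0, and Benjamini-Hochberg adjusted p-values under 0.05 were called. Pairs were compared in a limma fit on 13 arrays with a signed term per pair and a dye term. The scripts were tested on simulated data. Promoter letters came from RefSeq, and figures from matplotlib 3.10.9 in Python 3.11.15.

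As far as the labels tell, p-values of NT1 against TBV on source pairs reflect variation between preparations from 1 line of each kind. The number of independent pairs, 3, limits the precision of that test. P-values of the fit on single arrays, which compared the pairs, reflect the spread of repeated hybridisations of the same RNA. They do not measure variation between preparations. The members and gene lists were chosen with earlier results of these data known. Genes named were 9 measured genes of a written list of 17, the 5 highest and 5 lowest by mean and by pair difference, those on 1 side of 0 in all 3 pairs and those past a threshold, and other members are named in the account of their family. Alternatives covered the dye orientation, centring, scaling, spots, whole numbers, direction of a pair, replicate unit and arrays or pairs left out.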

Additional observations from a re-analysis of the deposited data

Results flagged for a closer look

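In 7 adhesion genes the ratio of NT1 over TBV differed between NT1p14/TBVp13 and NT1p12/TBVp12 by a test of the difference itself (limma, adjusted p under 0.05). The differences were 1.36 for Itgb1, 1.22 for Cdhr2, 1.09 for Cldn13, -0.59 for Pcdh17, -0.61 for Itgae, -0.64 for Pcdh18 and -1.01 for Itga2b. Over the 17 alternatives other than turning the signs of a pair, Itgb1 passed in 16, with differences from 0.83 to 1.53. Of the alternatives that held them, Cdhr2 passed in 12 of 16, Itga2b in 13 of 16, Cldn13 in 8 of 16, Pcdh18 in 6 of 16, Pcdh17 in 9 of 17 and Itgae in 7 of 17. With the signs of NT1p14/TBVp13 turned, 0 of the 7 passed.

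A single array stood apart from its repeats: Cdhr2 was at -0.34 on array 3 of NT1p12/TBVp12, while the other 3 arrays of the pair lay between -1 and -0.89. Of 38 groups of 4 or 5 arrays examined this was the only such case. Chance gives about 1 case in 20 groups, so 1 case among 38 groups is no more than chance gives. The repeats at -1 were whole numbers, so the narrow range of the repeats is coarse.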

How the results depend on the processing

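In the comparison of NT1 with TBV, 0 of the 35 genes passed under each alternative run, including the source pair as a random block on 13 arrays (3 of all genes) and each pair or array left out. The count above 0 in all pairs, 4, was 2 with 4 pairs, 1 with NT1 in Cy5 only, 7 with TBV in Cy5 only and 1 without spots holding a whole number; it ranged from 3 to 6 without single arrays and from 6 to 9 without single pairs. The count below 0, 0, was 3 with NT1 in Cy5 only, 1 with TBV in Cy5 only, 3 with scaled arrays and 8 with NT1p14/TBVp13 turned, ranging from 0 to 2 without single arrays and from 1 to 10 without single pairs. Except with the pair turned, the shares of all genes under these alternatives are not given here. Shifts in these counts thus cannot be read as particular to the adhesion genes. Family medians over the same alternatives were -0.11 for integrin beta with NT1 in Cy5 only, 0.019 and 0.049 for cadherins with NT1 and with TBV in Cy5 only, -0.073 and 0.16 for protocadherins likewise, and 0.033 for integrin alpha and -0.047 for integrin beta with the pair turned. The claudin median, -0.063, was -0.16 with NT1 in Cy5 only, 0.087 with TBV in Cy5 only and -0.27 with the pair turned. Without single pairs the medians ranged from -0.11 to 0.028 for integrin alpha, -0.0017 to 0.13 for integrin beta, -0.11 to 0.063 for cadherins, 0.042 to 0.059 for protocadherins and -0.073 to 0.0080 for claudins. Without single arrays they ranged from -0.050 to -0.0012, 0.025 to 0.086, -0.095 to -0.014, -0.018 to 0.055 and -0.16 to -0.014 in that order of families.

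The 7 calls between NT1p14/TBVp13 and NT1p12/TBVp12 stood beside 24% of all genes, and brackets give the share of all genes for each alternative. They became 4 without a dye term (15%), 3 with scaled arrays (7.35%) and 15 at a threshold of 0.1 (36.9%). Without spots holding a whole number they became 4 (24.6% of the 5094 genes left). They became 4 on the 9 arrays of these pairs (8.72%), 0 with the first pair turned (0.276%) and 0 without the 4 coarsest arrays (0.213%). All 3 of these alternatives were chosen after seeing the data. Leaving out single arrays gave 1 to 11. For NT1p12/TBVp12 it gave 1 without array 2 (1.73%) or 4 (1.48%) and 2 without array 1 (2.1%). For NT1p14/TBVp13 it gave 3 without array 4 (15.4%) or 5 (10.6%) and 11 without array 1 (30.3%). The dye effect gave 1 call on 13 arrays, against 0 on pairs. With values of 0 ignored, 3 genes were above and 5 below 0 on all arrays of NT1p14/TBVp13. The share of all genes under this rule is not given here, so these counts cannot be read as particular to the adhesion genes. Except where the construction of an alternative shows it, the cause was not tested. No paired analysis was possible because the replicate numbers were given in accession order and a source pair already holds both sources.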
